A study of Homo sapiens with 4 samples.

Results

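The genes described here encode the factors that start and carry out cytosolic protein synthesis. They were chosen by symbol: every gene with a probe set of its own whose symbol begins with EIF1 to EIF6 or with EEF1 or EEF2, leaving out the 4E-binding proteins and pseudogenes, plus PABPC1, PABPC4, ETF1, GSPT1 and TPT1. This gave 64 genes of the 18377 named on the array. The symbol rule also took in genes that are no translation factors themselves. Among them are 4 kinases of eIF2, 4 methyltransferases of elongation factors, the kinase EEF2K, the retrogene EIF2S3B and EIF3J-DT, a noncoding transcript that diverges from EIF3J. RNA came from OPM2, an established line of human multiple myeloma, a tumour of plasma cells, grown in culture medium with serum. There were 2 control arrays of cells given the solvent DMSO and 2 arrays of cells given VS-5584 (SB2343), which inhibits mTOR and the class I PI3 kinases, all taken at 24 h. The dose was 123 nM per the sample labels and 125 nM per the design text, which places it below the 48-h IC50. All samples come from 1 cell line. The sample titles call the replicates biological, but nothing in the labels says how the cultures were kept apart. The p-values thus rest on the spread between these arrays, of the gene itself and pooled over all tested genes. Part of that spread may be technical.

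Translation starts when eIF2, carrying GTP and the initiator tRNA, joins the small ribosomal subunit together with eIF1, eIF1A, eIF3 and eIF5, and eIF4F brings the complex to the capped end of an mRNA. The factor eIF2B reloads eIF2 with GTP, and stress kinases slow this step by phosphorylating eIF2. Elongation is then driven by eEF1A, which delivers charged tRNAs, and eEF2, which moves the ribosome along. The kinase mTOR controls the system at the level of translation by phosphorylating the 4E-binding proteins and S6 kinases. Many messages for elongation factors and for some initiation factors begin with a C followed by a run of pyrimidines, the 5' terminal oligopyrimidine (TOP) tract. When mTOR is inhibited, the protein LARP1 binds such messages, holds them back from ribosomes and protects them from decay.

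A list of 17 members known as TOP messages was written from textbook knowledge. RefSeq transcript starts (GRCh38.p14) were at hand for 50 of the 64 members, 10 of them on the TOP list. The motif searched was a C at the annotated first base followed by at least 4 bases that are each C or T, read on the transcript's strand only. It was present at 1 or more starts of 9 of these 10 TOP list genes and of 5 of the 40 other members, and at 4.07% of all 35116 starts in the table. The following windows of 30 bases run from 10 bases before the start to 20 bases from it, with the pyrimidine run in capitals. They are shown because the run is the feature that defines TOP messages. The first group holds all 13 tested members with the run at an annotated start. Of these, EIF2S3, EEF1B2, EIF3K and EIF3M were lower on average after VS-5584 and the other 9 higher.
EEF1A1 (chr6:73521013-73521042, minus strand): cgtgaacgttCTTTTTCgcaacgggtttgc
EEF2 (chr19:3985444-3985473, minus strand): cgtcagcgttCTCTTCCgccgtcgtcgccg
EIF4B (chr12:53006446-53006475, plus strand): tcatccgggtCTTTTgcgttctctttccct
TPT1 (chr13:45341164-45341193, minus strand): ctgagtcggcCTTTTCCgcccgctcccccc
EIF2A (chr3:150546777-150546806, plus strand): cgagcggtttCTCTTTCCgggacaacatgg
EIF3F (chr11:7987327-7987356, plus strand): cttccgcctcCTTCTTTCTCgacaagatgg
EIF2S3 (chrX:24054946-24054975, plus strand): gatttccttcCTCTTTTggcaacatggcgg
EIF3D (chr22:36529147-36529176, minus strand): cgcatgtttcCTCTTTTCCTggtttctcaa
EIF2D (chr1:206612446-206612475, minus strand): ccagccgggcCCTTTTCgcggccgggcccc
EIF4A2 (chr3:186783567-186783596, plus strand): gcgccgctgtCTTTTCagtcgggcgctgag
EEF1B2 (chr2:206159885-206159914, plus strand): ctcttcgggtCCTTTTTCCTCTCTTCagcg
EIF3K (chr19:38619178-38619207, plus strand): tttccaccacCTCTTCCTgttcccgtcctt
EIF3M (chr11:32583821-32583850, plus strand): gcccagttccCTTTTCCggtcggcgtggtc
The second group gives 6 of the 33 tested members with no such run, and so no capitals. The first 4 were lower on average after VS-5584, and EEF1G and EIF2AK3 were higher.
EIF2B3 (chr1:44986576-44986605, minus strand): gctgtcagtcagaggcggcgtggagatcgc
EIF2S1 (chr14:67360318-67360347, plus strand): gaggttccgcatgcgcggtggagtgagcga
EIF3B (chr7:2354817-2354846, plus strand): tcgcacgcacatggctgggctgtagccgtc
EIF4A3 (chr17:80147109-80147138, minus strand): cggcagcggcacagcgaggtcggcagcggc
EEF1G (chr11:62573872-62573901, minus strand): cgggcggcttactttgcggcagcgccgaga
EIF2AK3 (chr2:88627445-88627474, minus strand): tgtccgagataggctgtcactcaggtggca
A match describes these letters at an annotated start, and where cap sites lie in OPM2 was not measured. EIF2D, EIF3D, EIF3K and EIF3M are not on the TOP list although their starts have the run, and EEF1B2 has another annotated start without it. EEF1G is on the list, and its annotated start lies at an A just before a short pyrimidine stretch.

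The table holds linear intensities, and levels below are their log2 values. VS-5584 replicate 2 stood apart: its log2 values spanned 1.74 between the quartiles of all probe sets against 1.93 to 1.95 on the other 3 arrays. Its correlation with the other arrays was 0.980 to 0.985, against 0.993 to 0.996 among those. Among the 11026 tested genes, its median gene lay 0.14 below the DMSO mean, and that of VS-5584 replicate 1 lay 0.0022 below. Over all probe sets, however, replicate 2 had the highest median intensity, 52.5 against 49.3 to 50.02. The tested genes were split by mean level into 4 bins of near equal size, bin 1 the dimmest. Medians on VS-5584 replicate 2 were 0.06, -0.11, -0.30 and -0.23 in bins 1 to 4, against the DMSO mean. Its values thus spanned less between the quartiles and were not lower throughout. The shift did not grow steadily with level, since bin 4 was less low than bin 3. All 9 plasma cell markers passed the filter on dim genes, with a summed intensity of 11831 to 12068 on the DMSO arrays and 12826 to 13727 on the VS-5584 arrays. None of the 5 T cell and 5 myeloid markers passed it, and their sums ran from 165 to 175 and 165 to 167 on DMSO and from 168 to 179 and 169 to 177 on VS-5584. Stromal and epithelial markers (4 of 6 passed) summed to 346 to 364 on DMSO, and to 357 and 427 on VS-5584. Of 4 erythroid markers, 2 had a probe set of their own, with sums of 181 to 193 and 164 to 196. The part of these differences in the results was not tested. On RNA from whole cultures, fewer cells of a kind and less RNA per cell cannot be told apart.

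After VS-5584, 14 of 17 members on the TOP list had a slightly higher average level, and 35 of the 43 other tested members, all 5 eIF2B subunits among them, had a lower one. No member passed the test, and the difference between the lists was not tested. Most genes this bright were lower too: 2176 of 2756 in level bin 3 and 2112 of 2757 in bin 4. These bins held 13 and 40 of the tested members. The share lower among members off the TOP list was thus near that of genes in the same bins. Of the 60 members tested, 38 were lower and 22 higher on average, with a median log2 difference of -0.08, against 62.7% lower, 37.3% higher and a median of -0.06 over all 11026 tested genes. On VS-5584 replicate 1, 33 members lay below the DMSO mean (50.6% of all genes), and on replicate 2, 41 did (67.4%). With limma, no member had an adjusted p under 0.05, as for all tested genes (0 called, 0%). The smallest adjusted p among members was 0.336, for EIF2B3. At an unadjusted p under 0.05, 3 members were lower (EIF2B3, EIF1AD and EIF4A3) and 2 higher (EIF3E and EIF3L), where 8.93% and 1.49% of all tested genes were. Both VS-5584 arrays lay below both DMSO arrays for 20 members and above them for 11, against 29.2% and 14.7% of all genes. These shares are near those of all tested genes, whatever their level. Within level bin 4, 24 of 40 members were lower, against 2112 of 2757 genes. There 9 members lay above both DMSO arrays, against 234 genes, and 13 below, against 1159 genes. Within bin 3, 10 of 13 members were lower, against 2176 of 2756 genes, and 0 lay above both DMSO arrays, against 192 genes. These gaps were not tested. EIF2B3 was the 1 member that differed by more than 1.5-fold. VS-5584 replicate 2 was below replicate 1 for 47 of 60 members and for 7962 of all 11026 genes.

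**Figure D1:**
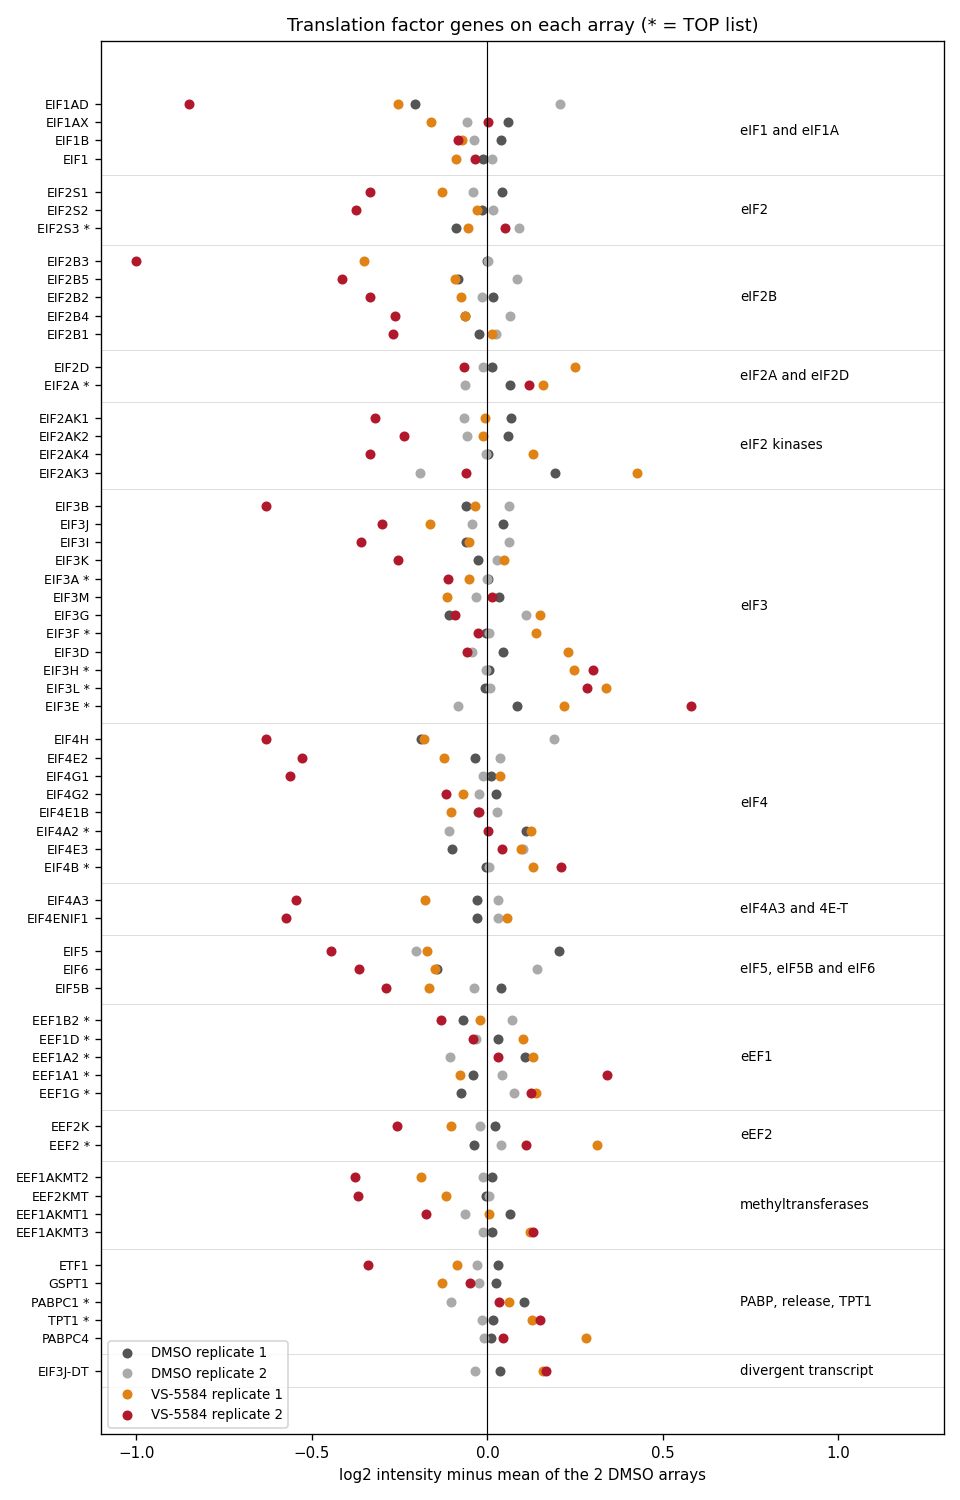
Each row is 1 of the 60 tested members, grouped by role, and each point 1 array; the horizontal axis is log2 intensity minus the mean of the 2 DMSO arrays (grey points), with VS-5584 replicate 1 in orange and replicate 2 in red. Members with an asterisk are on the TOP list; the red points of EIF2B3 (-1.002) and EIF1AD (-0.85) lie furthest to the left and that of EIF3E (0.58) furthest to the right.

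Of the 17 TOP list members, all tested, 14 were higher on average after VS-5584, with a median log2 difference of 0.13 and a range of -0.08 to 0.40. Of the 43 other tested members, 35 were lower, with a median of -0.16 and a range of -0.68 to 0.18. Both VS-5584 arrays were above both DMSO arrays for 8 TOP list members and below for 1 (EIF3A). Among the others these counts were 3 and 19, where 14.7% of all tested genes were above and 29.2% below. In level bins 3 and 4, 192 of 2756 and 234 of 2757 genes were above, and 1026 and 1159 below. The median of the TOP list was much the same on the 2 VS-5584 arrays, 0.13 on replicate 1 and 0.11 on replicate 2, while that of the others was -0.07 and -0.29. Without VS-5584 replicate 2, 13 TOP list members were higher and 29 of the other 43 were lower, with medians of 0.13 and -0.07. After cyclic loess normalization, which evens out intensity-dependent differences between arrays, 16 TOP list members were higher (median 0.18) and 30 of the others lower (median -0.04). The TOP list count was 11 of 17 without DMSO replicate 2 and with all probe sets of a gene averaged. An earlier look at these arrays had already shown TOP messages as a class to be higher, so the list's direction is not independent evidence.

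**Figure D2:**
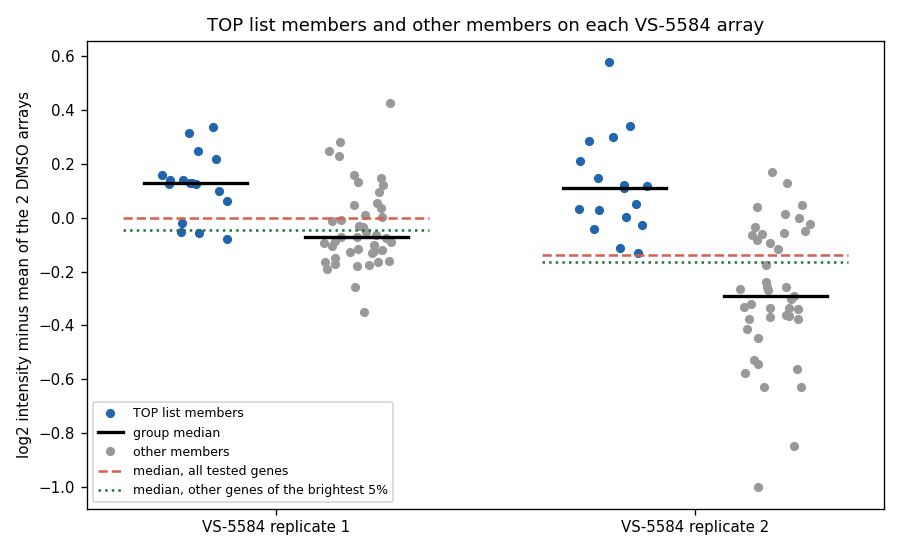
Each point is 1 member on 1 VS-5584 array, as log2 intensity minus the mean of the 2 DMSO arrays, for the 17 TOP list members (blue) and the 43 other tested members (grey), with group medians as black bars. The blue medians are 0.13 and 0.11 on replicates 1 and 2; the dashed line is the median of all tested genes and the dotted line that of other genes at or above the 95th percentile of mean level.

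TOP messages are abundant, so the members were also set against other bright genes. Among 852 tested genes at or above the 95th percentile of mean level that are neither members nor ribosomal protein genes, 639 were lower, with a median of -0.10. In that range, 10 of 12 TOP list members were higher (median 0.13) and 12 of 14 other members were lower (median -0.10). Levels were not matched within it. The median percentile was 97.4 for the 852 genes, 99.0 for these TOP list members and 98.1 for these other members. The cytosolic ribosomal protein genes, the largest TOP class, had 48 of 62 tested genes higher and a median of 0.10. Split by the letters at the start in place of the textbook list, 9 of 13 tested members with the run were higher (median 0.09), and 29 of 33 members without it were lower (median -0.21). This split largely repeats the list, since 9 of the 13 are on it, 7 of them higher. Of the 4 that are not, EIF2D and EIF3D were higher (0.09 and 0.09) and EIF3K and EIF3M lower (-0.10 and -0.05). With the run, 30 of 36 ribosomal protein genes were also higher. Among the remaining tested genes, 205 of 577 with the run (35.5%) and 2848 of 8207 without it (34.7%) were higher, with medians of -0.05 and -0.08. After cyclic loess these shares were 53.6% and 45.4%, with medians of 0.01 and -0.02. On VS-5584 replicate 1 they were 52.7% and 48.6%, and on replicate 2 they were 32.4% and 29.6%. The gap in shares between genes with and without the run was thus wider after cyclic loess. Both medians moved up together, and the gap between them stayed about the same. Neither gap was tested.

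**Figure D3:**
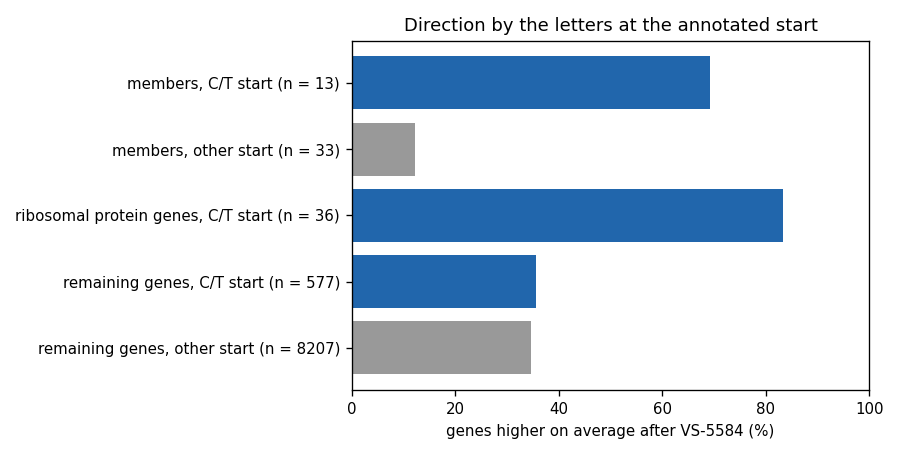
Bars give the percentage of tested genes that were higher on average after VS-5584, by whether an annotated start is a C followed by at least 4 pyrimidines (blue) or not (grey), with the number of genes beside each label. Members and ribosomal protein genes with such a start reach 69.2% and 83.3%, and the remaining genes lie at 35.5% and 34.7% (53.6% and 45.4% after cyclic loess).

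The factors that scan for the start codon differed little. EIF1, EIF1B and EIF1AX, which keep the ribosome scanning until it meets the start codon, had log2 differences of -0.06, -0.08 and -0.08. EIF1AD, named for an eIF1A-like domain, is grouped with them here by its symbol only. It was at 7.29 and 7.70 on DMSO replicates 1 and 2 and at 7.24 and 6.65 on VS-5584 replicates 1 and 2. The groups did not overlap, but VS-5584 replicate 1 was only just under the lower DMSO array. Its difference was -0.55 ± 0.21 (SE; 95% interval -1.03 to -0.08, adjusted p = 0.426), and -0.26 without VS-5584 replicate 2.

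Of the 3 subunits of eIF2, the alpha and beta subunits were lower and the gamma subunit was level. EIF2S1, the alpha subunit that the stress kinases phosphorylate, was at 10.25 and 10.16 on DMSO and at 10.08 and 9.87 on VS-5584. Both VS-5584 arrays were below both DMSO arrays, with a difference of -0.23 ± 0.14 (SE; adjusted p = 0.568). EIF2S2, the beta subunit, was at 10.21 and 10.24 on DMSO and at 10.20 and 9.85 on VS-5584, so that replicate 2 made up nearly all of its difference of -0.20 ± 0.15 (SE). EIF2S3, the gamma subunit that binds GTP and the tRNA and the 1 subunit on the TOP list, was at 10.64 and 10.82 on DMSO and at 10.67 and 10.78 on VS-5584. Its groups overlapped, and its difference of -0.0027 had a 95% interval of -0.31 to 0.31, which leaves room for a shift as large as that of EIF2S1. The median of the 3 subunits was -0.20, with -0.06 on VS-5584 replicate 1 and -0.33 on replicate 2.

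All 5 subunits of eIF2B, the exchange factor that recycles eIF2, were lower on average. Their median was -0.20, with -0.07 on VS-5584 replicate 1 and -0.33 on replicate 2. All tested genes of level bins 3 and 4 had medians of -0.16 and -0.13. These were -0.02 and -0.03 on replicate 1 and -0.30 and -0.23 on replicate 2. The eIF2B median was thus not far from that of other genes in these bins, and the gap was not tested. EIF2B3, the gamma subunit of the catalytic part, was at 8.01 on both DMSO arrays and at 7.66 and 7.01 on the VS-5584 arrays. Both VS-5584 arrays were clearly lower, though they differed from each other by more than replicate 1 did from DMSO. The difference was -0.68 ± 0.20 (SE; 95% interval -1.12 to -0.23), a 1.60-fold lower level (adjusted p = 0.336), and -0.35 without replicate 2. EIF2B5, the catalytic epsilon subunit, was at 6.96 and 7.13 on DMSO and at 6.96 and 6.63 on VS-5584, a difference of -0.25 ± 0.15 (SE; adjusted p = 0.572). Replicate 1 of EIF2B5 lay at the level of the lower DMSO array. EIF2B2, EIF2B4 and EIF2B1, of the beta, delta and alpha subunits, had differences of -0.20, -0.16 and -0.13. For EIF2B4 and EIF2B1 the groups overlapped. Without VS-5584 replicate 2, 4 of the 5 subunits were lower, and the difference of EIF2B1 was 0.012. After cyclic loess all 5 remained lower, but the median shrank to -0.06 and only EIF2B3 (-0.54) and EIF2B5 (-0.15) stayed beyond -0.1.

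The 4 kinases that phosphorylate eIF2 did not separate the groups: their DMSO and VS-5584 arrays overlapped for each. EIF2AK3 (PERK), which senses unfolded protein in the endoplasmic reticulum, was at 9.18 and 8.79 on DMSO and at 9.41 and 8.92 on VS-5584. It was high on replicate 1 of both groups and low on replicate 2 of both, and its difference of 0.18 ± 0.19 (SE) turned to -0.06 without VS-5584 replicate 1 and to -0.01 without DMSO replicate 2. EIF2AK1 (HRI), EIF2AK2 (PKR) and EIF2AK4 (GCN2, which senses uncharged tRNA) had differences of -0.16, -0.13 and -0.10. EIF2A and EIF2D, which can bring initiator tRNA to the ribosome without eIF2, had differences of 0.14 and 0.09. Both have the pyrimidine run at an annotated start.

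**Figure D4:**
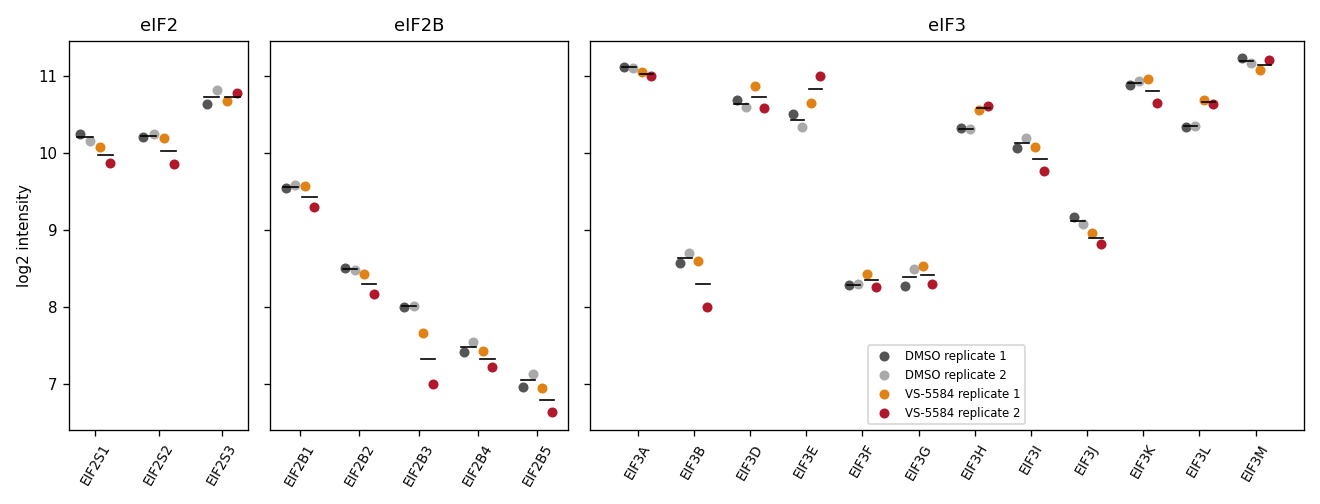
Log2 intensity of each subunit gene of eIF2, eIF2B and eIF3 on the 4 arrays (points, DMSO in greys and VS-5584 in orange and red), with the mean of each pair of arrays as a bar. All 5 eIF2B subunits have a lower VS-5584 mean, while EIF3E, EIF3H and EIF3L have both VS-5584 points above both DMSO points; heights are not comparable between genes.

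The 12 measured subunits of eIF3, the scaffold that holds the small ribosomal subunit ready, divided evenly: 6 were higher and 6 lower, with a median of -0.01. The median was 0.08 after cyclic loess, 0.03 after quantile normalization and -0.06 after median centring. It was 0.09 (5 lower) without VS-5584 replicate 2 and -0.08 (8 lower) without VS-5584 replicate 1, so its sign was not settled. The 3 largest increases of all members were in eIF3. EIF3E was at 10.51 and 10.34 on DMSO and at 10.65 and 11.01 on VS-5584, a difference of 0.40 ± 0.16 (SE; 95% interval 0.04 to 0.75, adjusted p = 0.443). EIF3L was at 10.34 and 10.36 on DMSO and at 10.69 and 10.63 on VS-5584, a difference of 0.31 ± 0.13 (SE; 95% interval 0.02 to 0.60, adjusted p = 0.460). EIF3H was at 10.32 and 10.31 on DMSO and at 10.56 and 10.62 on VS-5584, a difference of 0.27 ± 0.13 (SE; 95% interval -0.02 to 0.56, adjusted p = 0.504). In EIF3L and EIF3H the replicates of each group lay close together and the groups were well apart, whereas EIF3E varied more. All of them are TOP list genes and belong to the core of subunits with PCI or MPN domains. No annotated start was at hand for EIF3E, EIF3L and EIF3H, so the pyrimidine run was not searched in them.

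Of the other core subunits, EIF3F, also on the TOP list, differed by 0.06, EIF3M by -0.05 and EIF3K by -0.10. EIF3A, the largest subunit, was at 11.11 on both DMSO arrays and at 11.06 and 10.9997 on VS-5584. It was thus lower on both arrays but by only 0.08 (95% interval -0.37 to 0.21), and it was the 1 TOP list member below both controls. EIF3D, which can itself bind the cap of some messages, differed by 0.09. Among the 3 subunits of the peripheral module, EIF3B was at 8.58 and 8.70 on DMSO and at 8.60 and 8.01 on VS-5584, a difference of -0.33 ± 0.19 (SE; adjusted p = 0.561). That difference came from replicate 2 alone, since replicate 1 lay between the DMSO arrays. EIF3I and EIF3G of the same module differed by -0.21 and 0.03. EIF3J, a loosely bound subunit, was below both DMSO arrays on both VS-5584 arrays, with a difference of -0.23 ± 0.13 (SE), while its divergent noncoding neighbour EIF3J-DT was above them by 0.16 ± 0.13 (SE). The probe sets' strand was not used here. No test compared the 2 genes.

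In the cap-binding group eIF4, 5 of 8 tested genes were lower, with a median of -0.08 that was -0.02 after cyclic loess. EIF4E, the cap-binding protein that the 4E-binding proteins hold in check, was too dim to be tested: it was at 5.54 and 5.47 on DMSO and at 5.41 and 5.47 on VS-5584. EIF4G1, the scaffold of eIF4F, was at 7.99 and 7.97 on DMSO and at 8.02 and 7.42 on VS-5584. Only replicate 2 was low, and the difference of -0.26 ± 0.19 (SE; adjusted p = 0.631) became 0.03 without it. EIF4H, a helper of the helicase eIF4A, was at 7.15 and 7.53 on DMSO and at 7.16 and 6.71 on VS-5584, a difference of -0.41 ± 0.19 (SE; adjusted p = 0.487) with overlapping groups. EIF4E2 (4EHP), a cap-binding repressor, was at 9.21 and 9.28 on DMSO and at 9.13 and 8.72 on VS-5584, a difference of -0.33 ± 0.16 (SE; adjusted p = 0.515).

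EIF4B, the other helper of eIF4A and a target of S6 kinase, had both VS-5584 arrays above both DMSO arrays. It was at 11.47 and 11.48 on DMSO and at 11.61 and 11.69 on VS-5584, a difference of 0.17 ± 0.13 (SE; adjusted p = 0.658). Its other probe sets gave 0.28 and 0.28, with no overlap of the groups either. The helicase gene EIF4A2 differed by 0.06 and EIF4E3 by 0.07. EIF4E1B and EIF4G2 (DAP5), a scaffold for cap-independent initiation, differed by -0.06 and -0.09. EIF4A3, a helicase of the exon junction complex and so of mRNA processing more than of initiation, was at 10.34 and 10.40 on DMSO and at 10.19 and 9.82 on VS-5584. Both VS-5584 arrays were lower, with a difference of -0.36 ± 0.15 (SE; 95% interval -0.71 to -0.01, adjusted p = 0.469), and -0.18 without replicate 2. EIF4ENIF1 (4E-T), which takes eIF4E to P-bodies, differed by -0.26, with 0.06 on replicate 1 and -0.58 on replicate 2.

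EIF5, EIF5B and EIF6, which act before and around the joining of the ribosomal subunits, lay below the DMSO mean on both VS-5584 arrays. EIF5, the GTPase activator of eIF2, EIF5B, the GTPase of subunit joining, and EIF6, which keeps free large subunits apart, had differences of -0.31 ± 0.17, -0.23 ± 0.13 and -0.26 ± 0.15 (SE). The groups did not overlap for EIF5B and EIF6, and for EIF5 they did, since DMSO replicate 2 (9.72) lay below VS-5584 replicate 1 (9.75).

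Elongation factors were level or slightly higher. Of 5 tested eEF1 genes, 4 were higher on average, with a median of 0.08, and all 5 are on the TOP list. EEF1A1, which delivers charged tRNAs to the ribosome, was at 12.10 and 12.18 on DMSO and at 12.07 and 12.48 on VS-5584. The VS-5584 arrays thus lay on either side of the DMSO arrays, and the difference of 0.13 ± 0.16 (SE; adjusted p = 0.782) turned to -0.08 without replicate 2. EEF1A2, its tissue-restricted paralogue, differed by 0.08. EEF1G, of the exchange complex that reloads eEF1A, was at 11.58 and 11.73 on DMSO and at 11.79 and 11.78 on VS-5584, a difference of 0.13 ± 0.13 (SE; adjusted p = 0.732). Both VS-5584 arrays lay above DMSO replicate 2, by less than the DMSO arrays lay apart. EEF1D and EEF1B2 of the same complex differed by 0.03 and -0.08. The eEF1 median was -0.0023 without DMSO replicate 2.

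EEF2, which moves the ribosome along the message, was at 10.35 and 10.42 on DMSO and at 10.70 and 10.49 on VS-5584. Both VS-5584 arrays were higher, replicate 1 more so, with a difference of 0.21 ± 0.14 (SE; 95% interval -0.10 to 0.52, adjusted p = 0.603). EEF2K, the kinase that inactivates eEF2 and that mTOR signalling restrains, was lower on both arrays, with a difference of -0.18 ± 0.13 (SE). Among the methyltransferases of elongation factors, EEF1AKMT2, EEF2KMT and EEF1AKMT1 differed by -0.28, -0.24 and -0.09, and EEF1AKMT3 by 0.13.

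The remaining members bind the poly(A) tail or end translation. PABPC1, the main cytoplasmic poly(A)-binding protein, was at 10.92 and 10.71 on DMSO and at 10.88 and 10.85 on VS-5584, with overlapping groups and a difference of 0.05 (95% interval -0.26 to 0.36). PABPC4 differed by 0.16 ± 0.14 (SE), with both VS-5584 arrays higher. TPT1, which encodes the TOP-regulated growth protein TCTP, was at 11.18 and 11.15 on DMSO and at 11.29 and 11.32 on VS-5584. Its arrays agreed closely within each group and did not overlap, with a difference of 0.14 ± 0.13 (SE; adjusted p = 0.718). The release factor genes ETF1 and GSPT1 (eRF1 and eRF3) were below DMSO on both arrays, with differences of -0.21 and -0.09.

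Several members rest on uncertain probe sets. EEF1A1, TPT1, EEF1B2, EEF1G, EIF4B, EIF1AX and others have processed copies in the genome that can share their signal. Of the 7 members with more than 1 probe set, the second probe set went the other way for TPT1 (-0.40 against 0.14), EIF4A2 (-0.36 against 0.06) and EEF1D (-0.05 against 0.03). In each case the second one was the dimmer. EIF4A1, EIF3C and EIF5A share their probe sets with other genes and were not analysed here. EIF5A2 and EIF2S3B were too dim to be tested, at 4.69 to 4.75 and 5.00 to 5.31 over the 4 arrays, and EIF1AY, the Y-linked copy of EIF1AX, did not pass the filter either.

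Genes that regulate these factors were taken from a list of 26, of which 24 had a probe set of their own and 23 were tested. Of these, 20 were lower and 3 higher on average (62.7% and 37.3% of all tested genes), with a median of -0.21, and 0 passed an adjusted p of 0.05 with limma. At an unadjusted p under 0.05, 3 were lower and 2 higher, where 8.93% and 1.49% of all tested genes were. In level bins 3 and 4, 2176 of 2756 and 2112 of 2757 tested genes were lower on average. PDCD4, an inhibitor of eIF4A that S6 kinase marks for destruction, was at 6.94 and 7.01 on DMSO and at 7.44 and 7.87 on VS-5584. Both VS-5584 arrays were higher, with a difference of 0.69 ± 0.16 (SE; 95% interval 0.32 to 1.05, adjusted p = 0.276), a larger increase than for any member. PAIP2, which pulls PABPC1 off the poly(A) tail, was the other gene higher at an unadjusted limma p under 0.05. Its difference was 0.31 ± 0.13 (SE; adjusted p = 0.467). The third gene that was higher on average, DOHH, differed by 0.02.

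On the lower side, RPS6KB1, the S6 kinase itself, was at 8.44 and 8.72 on DMSO and at 8.15 and 8.12 on VS-5584, a difference of -0.45 ± 0.14 (SE; adjusted p = 0.371). EIF4EBP1, the 4E-binding protein through which mTOR controls eIF4E, was at 7.52 and 7.43 on DMSO and at 7.18 and 7.02 on VS-5584, a difference of -0.37 ± 0.13 (SE; adjusted p = 0.417). DENR, which recycles ribosomes and helps reinitiation, differed by -0.30 ± 0.13 (SE; adjusted p = 0.471). For these 3 genes the groups did not overlap. ATF4 and DDIT3, whose messages or promoters respond when eIF2 is phosphorylated, differed by -0.22 and -0.22, and LARP1 by -0.13.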

How the data were processed

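Expression was measured on 4 one-colour arrays. The deposited table gives 1 linear intensity per probe set (28869) and array. Per the submitters' processing notes the authors used RMA, with no version given. The step from RMA to linear values, any added constant and the genome build are not given in the sources used here. An added constant would make differences of dim genes too small. The lowest intensity was 19.8 to 20.01 on each array, and no probe set could be called above background. Depth does not apply to arrays, and their number limits the precision.

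Intensities were converted to log2 without further normalization. Probe sets with 1 gene in the platform annotation (19310) were named, 1752 with several genes and 7807 with none listed were not, and 19279 of the named ones matched RefSeq (GRCh38.p14) by gene ID. The brightest probe set stood for a gene. The 40% of genes with the lowest mean (below an intensity of 48.9) were left out, which left 11026. The comparison of VS-5584 with DMSO used lmFit and eBayes of limma 3.58.1 under R 4.3.3, two-sided, with Benjamini-Hochberg adjustment over all tested genes and a threshold of 0.05. In this fit the variance of each gene is drawn toward a value shared by all tested genes. The SEs, intervals and p-values given are thus not those of a gene's own arrays alone. An exact permutation of 2 against 2 arrays cannot go below p = 0.333, so none was used. The code was tested on simulated data. Figures were drawn with matplotlib 3.10.9.

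The members and lists were chosen with earlier results of these data known. Values on every array are given for a panel of factors, the 2 members of eIF2, eIF2B, eIF3, eIF4 and eEF1 with the smallest p, and the 5 largest differences in each direction. Of the regulators, the 5 with the smallest p are described. Any other gene named with values was chosen after its values were seen. The alternatives tried were a replicate block, 3 other normalizations, other filters, an intensity trend, averaged probe sets, subtracting 16 from every intensity, and leaving out each array. The comparison with other bright genes and the split by transcript start were added after the data were seen.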

Additional observations from a re-analysis of the deposited data

How the results depend on the processing

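No member passed the threshold in any of the fits of all 4 arrays without a block. The titles share replicate numbers, but nothing says that a number marks a shared batch. The difference between replicates correlated at 0.16 between the groups over the tested genes, and with 2 pairs this does not settle pairing. With the replicate number as a block, 432 genes passed, among them 2 members (EIF2B3 and EIF1AD) and 1 regulator. Genes past the threshold numbered 16 after cyclic loess, 2 after quantile normalization, 58 without the dimmest 60%, 80 with an intensity trend and 2 after subtracting 16. Leaving out an array gave 2 to 2636 genes, 0 to 13 members and 0 to 8 regulators past the threshold. The highest counts, and all 13 members, came without VS-5584 replicate 1, where replicate 2 stands alone and is assumed to vary like the DMSO arrays. Genes lower on average made up 62.7% in the main setting, 52.5% after cyclic loess and 71.6% after median centring. This share also depended on the filter, at 52.5% with no filter on dim genes and 74.2% without the dimmest 60%.

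The TOP list median was 0.085 after median centring, 0.18 after cyclic loess, 0.079 with probe sets averaged, and 0.087 to 0.15 with an array left out. The eIF4 median was -0.13, -0.019 and -0.12 under the same settings, and -0.084 to -0.018 with an array left out. After cyclic loess the eEF1 median was 0.13 and that of all members -0.0082. With an array left out, the eEF1 median ran from -0.0023 to 0.10. The medians of eIF2, eIF2B and eIF3 moved by less than the SD of their medians on the 2 VS-5584 arrays (0.20, 0.18 and 0.12) under every alternative. This measure is wide and does not show that they were stable. After cyclic loess the eIF2 median was -0.11 and that of eIF2B -0.06. With a VS-5584 array left out, a median moves toward that of the other array, so the measure could hardly be exceeded there. Of the 60 tested members, the sign of the difference turned for 2 after median centring, 7 after cyclic loess, 4 after quantile normalization, 3 with probe sets averaged, and 2 to 9 with an array left out, most without VS-5584 replicate 1. It turned for 0 under the other settings. Among the members described array by array, signs turned, for example, for TPT1 with probe sets averaged (-0.13), for PABPC1 (-0.057) and EIF2AK3 (-0.010) without DMSO replicate 2, for EIF2AK3 (-0.062) without VS-5584 replicate 1, and for EIF4G1 (0.035) and EEF1A1 (-0.078) without VS-5584 replicate 2. With an array left out, the differences ran from -0.56 to 0.035 for EIF4G1, -0.078 to 0.34 for EEF1A1, -0.057 to 0.15 for PABPC1 and -0.062 to 0.43 for EIF2AK3. The causes were not tested.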
